A study of Oncorhynchus mykiss with 24 samples.

Results

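Liver mRNA levels of sarcomeric actin were followed through 6 spots of a salmonid oligo-array, out of 43689 oligos on the array, of which 8679 entered the tests. The members are all spots whose description in the study's lists of differing mRNAs holds the whole word actin together with alpha or muscle. All 6 carry the description Actin, alpha sarcomeric/cardiac. The spots were thus chosen by the differences in mRNA level between these same groups of fish, and those differences are given below as a description. Calls of the fit over all oligos are stated beside the share of all oligos called, and they are not an independent test of the spots. Of the 6 spots, C041R095, C124R022, C124R025, C185R005 and C253R126 were each listed in 4 of the 6 group pairings, and C232R115 was listed only in D relative to Wa. The description is the array annotation's match by similarity. It does not separate a skeletal from a cardiac gene copy, and no trout gene, genome position or oligo sequence was used here, so whether several spots read the same transcript was not tested.

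Alpha sarcomeric actin forms the thin filament of striated muscle, on which myosin pulls during contraction. Vertebrates have separate alpha actin genes for skeletal muscle, heart and smooth muscle, and cytoplasmic beta and gamma actins for the cytoskeleton of other cells. Hepatocytes rely on the cytoplasmic forms, and alpha actins are chiefly products of muscle, although in mammals vessel walls and contractile liver cells make the smooth muscle form.

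The fish were rainbow trout (Oncorhynchus mykiss), with 6 livers in each of 4 groups. W/D fish were first-generation hybrids of a domesticated female and a wild male, D fish were a fast-growing commercial strain from Campbell Lake, and Wa and Ws fish were a slow-growing wild strain from Pennask Lake, Wa matched to the D fish by age and Ws by size. By the study's methods, W/D, D and Wa each came from 1 cross, W/D and D shared the D female, W/D and Wa shared the W male, and Ws fish were taken from the previous year's brood, bred by random mating. Strain and family, and age, body size and brood year in the wild groups, therefore cannot be told apart. All fish were reared in well water on artificial diet and fasted for a day before sampling, and D and Ws were the heavier groups. On every array the Cy5 dye marked a single fish and the Cy3 dye a pool of 6 size-matched wild fish, without dye swap. Whether the pool was made from the Ws fish is not given in the sources used here. Each slide held 1 array of each of the 4 groups, always at the same position, so that group and position cannot be told apart. Which fish shared a slide is not given in the sources used here.

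Levels are log2 ratios of a fish over the pool, so that 0 means the level of the pool and 1 means a level 2-fold that of the pool. They were normalised within arrays by loess. Oligos entered the tests if some group had unflagged Cy5 signals of 300 or more in all its 6 fish. A call in a pairing needed a limma adjusted p no higher than 0.05 together with a 2-fold difference. All 6 spots passed the filter, C232R115 only through its Wa and Ws fish. Of the 144 readings of the 6 spots on the 24 arrays, 139 lay above the local background in Cy5 and 144 in Cy3, none was saturated, and 3 were set to missing because the scanner file carries a quality flag. The median Cy5 signal over an array lay between 197 and 246. The precision of each value is limited by having 6 arrays a group. The titles of D replicates 4 and 6 carry the same fish code while their other labels differ. Their profiles correlated at r = 0.62 across oligos, toward the top of the range of 0.40 to 0.64 between D replicates, this pair included. That value cannot show whether they are the same fish, and they were kept as 2 fish.

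Liver markers were present: all 8 hepatocyte marker oligos (serum albumin, fibrinogen beta chain, plasminogen, coagulation factor IX, apolipoprotein A-I-2 and complement C3-1) passed the filter, and 6 of them lay above background on all 24 arrays.

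The 5 spots listed in several pairings shared a pattern over the groups. Averaged over these 5 spots, the level was -1.97 ± 0.83 in W/D, -0.51 ± 0.33 in D, -1.80 ± 0.32 in Wa and 0.21 ± 0.58 in Ws (log2 ratio, SD, n = 6 each). The SD and n of D count replicates 4 and 6 as separate fish. The order was Ws, D, Wa and W/D. Ranges of the neighbours Ws and D overlapped, as did those of Wa and W/D, whereas every Wa fish lay below every D fish. All 5 spots were listed in D relative to Wa, so this separation follows in part from their choice. In that pairing 3.63% of oligos with 12 values lacked overlap, and at C185R005 the D and Wa fish overlapped. In bulk liver RNA, fewer cells of a type and less RNA per cell cannot be told apart.

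The hybrid fish were the most spread out. The W/D fish had mean levels over the 5 spots of -1.19, -2.31, -0.90, -3.12, -1.81 and -2.50. In D the levels were -0.46, -0.85, -0.35, 0.00, -0.53 and -0.88. D replicates 4 and 6, whose titles carry the same fish code, were the highest and the lowest D fish. The range in D is thus the distance between these arrays, and it rests on their being separate fish. W/D replicates 1 and 3 lay near the lower end of D, and replicate 4 lay below all other fish. The Wa fish had -2.27, -1.82, -1.39, -1.78, -1.54 and -2.02, and the Ws fish had 0.48, 1.04, -0.47, -0.45, 0.27 and 0.41. Of the Ws fish, 4 lay above the level of the pool and 2 below it. The highest and the lowest fish differed 4.64-fold in W/D, 1.84-fold in D, 1.84-fold in Wa and 2.85-fold in Ws.

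The spot with the lowest spread inside Wa was C253R126. At C253R126 the W/D fish ranged from -3.12 to -0.83 with a median of -2.01, and the D fish from -0.94 to -0.09 with a median of -0.61. The Wa fish ranged from -2.0 to -1.65 with a median of -1.89, and the Ws fish from -0.38 to 1.32 with a median of 0.30. All D and Ws fish stood above all Wa fish. Among oligos with 12 values, 3.63% lacked overlap between D and Wa and 1.61% between Wa and Ws. W/D replicate 1 reached into the range of D. C253R126 was 4.41-fold lower in Wa than in Ws, with a log2 fold change of -2.14 ± 0.30 (SE), and 5.06-fold lower in W/D than in Ws.

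C041R095 had the largest difference between D and Wa. At C041R095 the W/D fish lay between -3.09 and -0.81 (median -2.01) and the D fish between -1.02 and 0.11 (median -0.39). The Wa fish lay between -2.54 and -1.16 (median -1.91) and the 5 Ws fish with a value between -0.56 and 1.04 (median 0.45). The D and Wa ranges lay close to each other without touching, beside 3.63% without overlap among oligos with 12 values. The level of C041R095 was 2.81-fold higher in D than in Wa (log2 fold change 1.49 ± 0.32, SE) and 4.72-fold lower in Wa than in Ws.

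C124R022 had median Cy5 signals of 2637 in W/D, 5338 in D, 2227 in Wa and 5895 in Ws. Its W/D fish lay between -3.0 and -0.59 (median -1.95) and its D fish between -0.86 and -0.26 (median -0.49). The Wa fish lay between -2.29 and -1.41 (median -1.82) and the Ws fish between -0.36 and 0.98 (median 0.16). The D fish kept within the narrowest range of any of the 5 spots in that group, 0.60 on the log2 scale. C124R022 was 2.55-fold lower in W/D than in D and 4.19-fold lower in W/D than in Ws.

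C124R025 had its highest D value in replicate 4. The W/D fish lay between -3.18 and -0.78 (median -1.90) and the D fish between -1.14 and 0.42 (median -0.54) at C124R025. The 5 Wa fish with a value lay between -2.02 and -1.17 (median -1.89) and the Ws fish between -0.67 and 0.77 (median 0.27). Wa replicate 3 lay apart from the other 4 and close to the lowest D fish. C124R025 was 2.36-fold higher in D than in Wa and 3.56-fold lower in Wa than in Ws.

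C185R005 differed least between D and Wa of the 5 spots. Its W/D fish lay between -3.18 and -0.88 (median -2.26) and its D fish between -1.16 and -0.18 (median -0.44). The 5 Wa fish with a value lay between -1.78 and -1.11 (median -1.68) and the Ws fish between -0.48 and 1.07 (median 0.40). Here the lowest D fish and the highest Wa fish overlapped. The difference of D relative to Wa was 1.94-fold (log2 fold change 0.95 ± 0.32, SE), with a limma adjusted p of 0.067, and it met neither part of a call. With the missing Wa value restored by disregarding the quality flag, C185R005 was called, with a log2 fold change of 1.21. It was also called from the deposited log2 ratios.

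The sixth spot, C232R115, had another pattern. At C232R115 the W/D fish lay between -1.07 and -0.14 (median -0.74) and the D fish between -1.10 and -0.12 (median -0.85). The Wa fish lay between 0.02 and 0.76 (median 0.38) and the Ws fish between -0.20 and 1.08 (median -0.08). The order of the means was Wa, Ws, W/D and D, in which Wa and Ws overlapped, and so did W/D and D. All Wa fish lay above all W/D and D fish. Among oligos with 12 values, 1.25% lacked overlap between W/D and Wa and 3.63% between D and Wa. C232R115 passed the filter only through Wa and Ws, where it was higher, and was listed in D relative to Wa. Its lack of overlap is therefore in part set by the filter and the choice.

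The signal of C232R115 was close to the local background on part of the arrays. Its Cy5 signal ranged from 202 to 409 in W/D, from 251 to 480 in D, from 364 to 870 in Wa and from 342 to 800 in Ws. The signal was above the local background on 3 of 6 arrays in W/D, on 4 of 6 in D, and on all 6 in Wa and in Ws. The 5 other spots lay above background on every array. The highest Ws value, 1.08 in replicate 3, stood apart from the other 5 Ws fish, which lay between -0.20 and 0.03. Without that fish, the log2 fold change of Wa relative to Ws was 0.50 in place of 0.30.

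Set side by side, the pairings gave the following for the 6 spots. In W/D relative to D, 5 of 6 spots were called lower, beside 0.357% of all oligos called lower and 0.749% called in either direction, with log2 fold changes of the 5 spots between -1.55 and -1.35 (median -1.48, 2.79-fold). C232R115 differed by 0.01 ± 0.23 (SE) in that pairing, and between -0.47 (Cy5 channel alone) and 0.29 (deposited log2 ratios) under other settings. The call of C124R025 was lost on the Cy5 channel alone, with median centring, when the adjusted p had to be at most 0.01, and without D replicate 4, W/D replicate 2 or W/D replicate 4. The call of C124R022 was lost on the Cy5 channel alone and at that stricter p, and that of C041R095 at the stricter p. The W/D and D fish overlapped at every spot, beside 1.28% without overlap among oligos with 12 values.

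In W/D relative to Wa, the 5 spots had log2 fold changes between -0.60 and -0.02 (median -0.17) and none of them was called. C232R115 was the 1 spot called, and it was lower in W/D, beside 0.3% of all oligos called lower and 0.933% called in either direction. Its log2 fold change was -1.10 ± 0.23 (SE), and it was the 1 spot without overlap between the fish, beside 1.25% of all oligos with 12 values. This difference was -1.62 on the Cy5 channel alone, and it was not called without background correction (-0.83) or from the deposited log2 ratios (-0.95). C232R115 passed the filter only through Wa and Ws, where it was higher. Its call and its lack of overlap here are therefore in part set by the filter.

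In W/D relative to Ws, the same 5 spots were called lower, beside 0.668% of all oligos called lower and 2.06% in either direction, with log2 fold changes between -2.38 and -2.0 (median -2.26, 4.79-fold). At these 5 spots no W/D fish reached the lowest Ws fish, beside 2.02% without overlap among oligos with 12 values. C041R095 lacked a Ws value and is outside that share. C232R115 differed by -0.80 ± 0.23 (SE) and was not called, whereas on the Cy5 channel alone it was called at -1.41. That spot passed the filter only through the wild groups, where it was higher, so its call is in part set by the filter.

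In D relative to Wa, 5 of 6 spots were called, beside 3.58% of all oligos. C041R095, C124R022, C124R025 and C253R126 were called higher, beside 2% of all oligos, with log2 fold changes between 1.24 and 1.49. C232R115 was called lower, beside 1.58% of all oligos, with -1.11 ± 0.23 (SE). At these 5 spots the D and Wa fish did not overlap, beside 3.63% of oligos with 12 values. C124R025 lacked a Wa value and is outside that share. The call of C124R025 was lost with the replicate number as a block, with median centring, when the adjusted p had to be at most 0.01 and without D replicate 4, and that of C232R115 was lost without background correction. C232R115 passed the filter only through the wild groups, where it was higher, so its call and lack of overlap are in part set by the filter.

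In D relative to Ws, all 6 spots had lower means in D, with log2 fold changes of the 5 spots between -0.86 and -0.59 and of -0.81 for C232R115. None was called by limma, beside 3.45% of all oligos, nor by the test named in the study's methods. An unadjusted limma p of at most 0.05 was reached by 5 of the 6 spots, all under 2-fold. The share of all oligos at that unadjusted p is not given here, so nothing is read from this count. Of the 6 spots, 1 had an adjusted p of at most 0.05, beside 7.3% of all oligos without a fold change threshold. The 1 spot was C232R115, which passed the filter only through the wild groups, where it was higher. Its adjusted p is therefore in part set by the filter. The ranges of the fish overlapped at every spot, beside 3.43% without overlap among oligos with 12 values.

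In Wa relative to Ws, the 5 spots were called lower, beside 0.38% of all oligos called lower and 0.887% in either direction, with log2 fold changes between -2.24 and -1.78 (median -2.01, 4.02-fold). No Wa fish reached the Ws range at these 5 spots, beside 1.61% without overlap among oligos with 12 values. C041R095 lacked a Ws value, and C124R025 and C185R005 a Wa value, so they are outside that share. C232R115 was 0.30 ± 0.23 (SE) higher in Wa and not called. The counts follow from the choice of the spots from these pairings, and nothing further is read from them. The pairings share groups and are not independent of each other. The median over all oligos tested lay between -0.02 and 0.02 in every pairing.

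The mean of the W/D hybrids over the 5 spots lay near that of Wa. It was -1.97 with all 6 fish, below D and Wa, and -1.74 without W/D replicate 4, between D and Wa. The mean of all 6 was set against a midpoint of D and Wa of -1.16, with a difference of -0.81, and 5 of 6 W/D fish lay below this midpoint. Against the midpoint of D and Ws, -0.15, the difference was -1.82, and all 6 W/D fish lay below it. W/D replicates 1 and 3 lay between the highest Wa and the lowest D fish. These values use the same contrasts that chose the spots and were not tested.

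Deviations of the fish from the mean of their own group were not used to choose the spots, and they were tested. The 10 pairs among the 5 spots had correlations of r between 0.81 and 0.91 (median 0.86) after group means were removed, over 22 to 24 fish with both values. Spearman's rho was between 0.77 and 0.91. The permutation test within groups gave adjusted p between 4.3e-05 and 0.0002 for r and at most 0.00072 for rho, over the 15 pairs of the 6 spots. The highest r was that of C041R095 with C185R005 (0.91) and the lowest that of C124R025 with C253R126 (0.81). With the 2 fish farthest from the median left out, r of the 10 pairs was between 0.74 and 0.88. For comparison, the median r of a spot with the other 8673 oligos tested lay between -0.0046 and 0.014, and 95% of those oligos had an r below 0.36 to 0.40.

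The 5 spots also moved together inside the groups taken one at a time. The median r of the 10 pairs was 0.94 in W/D, 0.67 in D, 0.59 in Wa and 0.95 in Ws, as a description over at most 6 fish. The pairs were tightest in the groups whose fish differed most, and in Wa 1 pair had an r of -0.19. In a fish with all 5 values, the highest and the lowest spot differed by 0.19 to 0.86 (median 0.49, 22 fish), on the log2 scale. W/D replicate 4 was the lowest and Ws replicate 2 the highest of all 24 fish at each of the 5 spots.

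The spots were among the more variable oligos. The SD within groups was between 0.53 and 0.63 at the 5 spots, against a median of 0.41 over all oligos tested, which put them between the 83rd and the 95th percentile. C232R115 had an SD of 0.39, at the 39th percentile.

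No relation of C232R115 to the other 5 spots from fish to fish was detected. Over 24 fish, its deviation from the group mean and that of the mean of the 5 spots had r = 0.01 (permutation p = 0.96) and rho = -0.02 (permutation p = 0.91). Without the 2 fish farthest from the median, both W/D, r was -0.25. Its r with the single spots was between -0.02 and 0.11, with adjusted p of at least 0.89. Inside the groups, r was 0.65 in W/D, 0.36 in D, -0.14 in Wa and -0.70 in Ws, with exact permutation p of 0.15, 0.47, 0.78 and 0.06 over 6 fish each, none past the threshold after adjustment over the 4 groups (lowest adjusted p 0.24). This split by group was chosen after the data were seen. At C232R115 the SD within groups was 0.41 for the shared pool in Cy3 and 0.43 in Cy5. Its spread between fish was thus near the technical spread, as far as unlike normalisations of the channels allow. These values cannot show that it is unrelated to the other 5 spots.

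The pool in Cy3 gave a measure of the technical spread, because every array carried the same RNA. In Cy3, the group means of the 5 spots differed by at most 0.29 on the log2 scale, against 2.0 to 2.38 for the ratios. The SD within groups was 0.17 to 0.34 in Cy3, against 0.59 to 0.70 in Cy5. Cy3 was normalised by quantiles between arrays, and Cy5 by loess within arrays followed by quantiles of the mean intensity of both dyes. The SDs of the channels thus come from unlike normalisations. For C232R115 the SD was 0.41 in Cy3 and 0.43 in Cy5, and its Cy3 group means differed by 0.63, lowest in W/D. None of the 6 spots differed between groups in Cy3 by limma's F test (lowest adjusted p 0.80, for C232R115), beside 0.0576% of all oligos. C232R115 was the only one of the 6 with an unadjusted p of at most 0.05 in that test, a level reached by 527 of all oligos.

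Other muscle mRNAs were taken from a list drawn from the same study lists, so that each was listed for a difference between groups and the list is not independent evidence. W/D over D gave 1 of its 7 oligos called higher and 0 lower, with a list median of 0.40 (log2), where the 5 actin spots had a median of -1.48. W/D over Wa gave 0 calls and a list median of 0.27, beside -0.17 for the actin spots. W/D over Ws gave 1 higher and 1 lower, with 0.65 beside -2.26. The list median was thus above 0 in each W/D pairing and that of the actin spots below 0. However, several list oligos are spots of nicotinamide riboside kinase 2, and 1 of these set the median for W/D over D. In that pairing alpha-actinin-2 (-0.09), muscle-type 6-phosphofructokinase (-0.43) and myocyte-specific enhancer factor 2D (-0.72) lay below 0. Phospholemman (1.72) and the nicotinamide riboside kinase 2 spots (0.45, 0.40 and 0.61) lay above 0. D over Wa gave 1 higher and 1 lower, with 0.08 beside 1.28. D over Ws gave 1 higher and 2 lower, with 0.56 beside -0.75, and Wa over Ws gave 0 calls, with 0.38 beside -2.01. In the order of these pairings, 0.749%, 0.933%, 2.06%, 3.58%, 3.45% and 0.887% of all oligos were called in either direction.

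Single muscle mRNAs differed from each other. Alpha-actinin-2, which anchors thin filaments at the Z-disc, averaged -1.02 ± 0.66 in W/D, -0.93 ± 0.43 in D, -0.34 ± 0.98 in Wa and 0.57 ± 0.24 in Ws (SD, n = 6 each), and it lay above background on 14 of 24 arrays. It was called lower against Ws both in W/D (-1.59) and in D (-1.50). Phospholemman, a regulator of the sodium pump in muscle membranes, was called higher in W/D relative to D (1.72) and lower in D relative to Wa (-1.98). Muscle-type 6-phosphofructokinase, a glycolytic enzyme, averaged 0.74 ± 0.51 in W/D, 1.17 ± 0.38 in D, 0.46 ± 0.23 in Wa and 0.09 ± 0.25 in Ws, and was called higher in D relative to Ws. Myocyte-specific enhancer factor 2D, a transcription factor, was called higher in D relative to Wa (1.53). The 3 spots of nicotinamide riboside kinase 2, an enzyme of NAD synthesis, had log2 fold changes of 1.13, 0.96 and 0.88 in W/D relative to Ws, and 1 of them was called.

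Among 9 oligos for other actin and contractile proteins, 7 entered the tests. The cytoplasmic actin spot and the smooth muscle myosin light chain kinase spot had too few unflagged values, although both lay above background on all 24 arrays. The calls were 1 lower in W/D relative to D, 0 in W/D relative to Wa, 3 lower in W/D relative to Ws, 2 higher and 1 lower in D relative to Wa, 2 higher and 1 lower in D relative to Ws, and 1 lower in Wa relative to Ws. Of all oligos, 0.749%, 0.933%, 2.06%, 3.58%, 3.45% and 0.887% were called in these pairings, in that order. These oligos too came from the study's lists, each listed for a difference between groups, so their calls are not independent evidence. The list medians were -0.31 for W/D over D, 0.07 for W/D over Wa, -0.72 for W/D over Ws, 0.03 for D over Wa, -0.46 for D over Ws and -0.65 for Wa over Ws (log2 fold change). Tropomyosin alpha-4, which lies along actin filaments, averaged -2.04 ± 0.35 in W/D, -1.48 ± 0.23 in D, -1.14 ± 0.71 in Wa and -0.48 ± 0.46 in Ws, and was called lower in W/D relative to Ws (-1.55). Profilin-2, which binds actin monomers, was called lower in W/D relative to D (-1.09) and higher in D relative to Wa (1.32) and Ws (1.15). Radixin, which links actin to the membrane, was called lower in W/D relative to Ws (-1.08).

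No correlation of these oligos with the 5 actin spots from fish to fish within groups passed the test. Over the 14 tested oligos of both lists, r with the mean of the 5 spots was between -0.29 and 0.32, with a lowest adjusted permutation p of 0.90 for r and 0.71 for rho (0 oligos at an unadjusted p of at most 0.05). Alpha-actinin-2 had r = 0.15 and rho = 0.07. With W/D replicates 3 and 4 left out, the fish farthest from the median, r ranged from -0.53 (nicotinamide riboside kinase 2, C102R142) to 0.50 (radixin). These values were not tested. Without W/D replicate 3, the lowest adjusted p was 0.14.

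Marker lists of other cells are given beside the actin spots, each with the range of its mean log2 ratio over fish. The 3 muscle fibre markers (alpha-actinin-2, muscle-type 6-phosphofructokinase and myocyte-specific enhancer factor 2D) ranged from -0.32 to 0.54 in W/D, from 0.26 to 0.75 in D, from -0.43 to 0.32 in Wa and from 0.30 to 0.58 in Ws. Their mean was 0.11 in W/D, 0.53 in D, -0.02 in Wa and 0.42 in Ws, higher in D and Ws than in W/D and Wa. None of the 3 had this order singly, and the mean of all 7 muscle oligos was 0.57 in W/D, 0.30 in D, 0.36 in Wa and 0.25 in Ws. All 3 were tested, 2 of 3 lay above background on all 24 arrays, and their part in the result was not tested. Alpha-actinin-2 lay above background on 14 of 24 arrays. Whether the 3 mark muscle fibres in these livers was not tested either. Within groups, the r of this list with the 5 spots was 0.29 (rho 0.31, permutation p = 0.25 and 0.15).

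Calponin-3 was the 1 tested oligo of the 2 listed as smooth muscle markers, and whether it marks smooth muscle here was not tested. Calponin-3 ranged from -0.99 to 0.36 in W/D, from -0.84 to -0.40 in D, from -0.80 to -0.35 in Wa and from -0.12 to 0.79 in Ws. It stood higher in Ws than in the other groups. The hemoglobin list, with 19 of 35 oligos tested, ranged from -0.15 to 0.71 in W/D, from 0.09 to 2.16 in D, from -0.32 to 0.19 in Wa and from -1.08 to -0.17 in Ws. The hepatocyte list ranged from 0.12 to 0.88 in W/D, from 0.45 to 1.17 in D, from -0.90 to -0.38 in Wa and from -0.33 to 0.70 in Ws. Within groups, r of these 3 lists with the mean of the 5 spots was 0.07, -0.17 and 0.04.

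The remaining marker lists were the 4 immunoglobulin oligos, with group means of 0.62 in W/D, 0.40 in D, 0.82 in Wa and 0.46 in Ws, and the 1 trypsinogen-like oligo, with 0.98 in W/D, 1.02 in D, 0.58 in Wa and -0.01 in Ws. The 1 tested oligo of 2 ovary and yolk markers averaged -1.84 in W/D, 0.53 in D, -2.81 in Wa and 0.00 in Ws, over 5 or 6 fish a group. These markers were a zona pellucida sperm-binding protein and a vitellogenin. Vitellogenin is made by the liver of females, so the list is not a measure of ovary. Whether the zona pellucida oligo marks ovary in these livers was not tested. Within groups, r of the immunoglobulin, trypsinogen-like and ovary and yolk lists with the 5 spots was 0.26, 0.20 and -0.10, and no list reached an adjusted permutation p below 0.86.

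The pattern most like the mean of the 5 spots over the 24 fish was that of C154R138, an oligo described as UNKNOWN, with r = 0.83. C154R138 averaged -1.54 ± 0.27 in W/D, -0.55 ± 0.36 in D, -1.79 ± 0.32 in Wa and -0.39 ± 0.35 in Ws (SD, n = 6 each). It was the only one of 6980 ranked oligos with an r above 0.8, and its r within groups was 0.35. The next 9 oligos had r between 0.67 and 0.71 over the 24 fish and between 0.14 and 0.58 within groups. Of these, 2 carry a name in the study's lists, U3 small nucleolar RNA-associated protein 14 homolog A, a ribosome biogenesis factor (C203R100, r = 0.70), and zinc-binding protein A33 (C047R144, r = 0.67). The other 7 are not in those lists. The median r of all ranked oligos was -0.03, and 95% of them had an r below 0.39. The 24 fish share the group means, so these values carry no test.

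For C232R115, the most alike was translationally-controlled tumor protein, an abundant growth-related protein (C066R160, r = 0.80 over 24 fish and 0.44 within groups). C066R160 averaged -1.04 ± 0.40 in W/D, -0.69 ± 0.55 in D, 0.34 ± 0.31 in Wa and 0.32 ± 0.22 in Ws. The next 4 were C200R050 and C240R009, which are not in the lists, U4/U6.U5 tri-snRNP-associated protein 2, a splicing factor (C230R055, r = 0.75), and serine protease 27 (C092R028, r = 0.73 over 24 fish and 0.03 within groups).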

How the data were processed

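For every array the authors deposited unnormalised ImaGene 9.0 output, that is, spot and background intensity for Cy3 and Cy5 and a flag code. They also deposited log2 ratios, made in GeneSpring 12.0 by LOWESS and median-centred per oligo, which served as an alternative (r with the rebuilt ratios 0.86 to 0.94 per array, across oligos).

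Ratios were rebuilt with limma 3.58.1 (R 4.3.3). After normexp background correction (offset 50), log2 Cy5 over Cy3 was normalised by loess within arrays. Control spots (1531 of 45220) and flag 3, which the sources used here do not define and which all saturated spots carry, had no weight, and flag 3 was set to missing. The fit covered 4 groups and 8679 oligos, with Benjamini-Hochberg adjustment in each pairing. All called differences rest on 2-sided tests. A signal was above background when it exceeded the mean local background by 2 of its SD. Within-group correlations used deviations from group means, permuted within groups (100000 resamples, two-sided), in Python 3.11.15. The mean of the 5 spots used the values present in a fish.

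Named oligos are the 6 spots, the list oligos that passed the filter, and the 10 and 5 oligos most alike. The members and lists were chosen with earlier results of these data known. Weights and other oligo names were not used here. Both steps were tested on simulated data.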

Additional observations from a re-analysis of the deposited data

Results flagged for a closer look

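Each of the 6 spots, and the mean of the 5, was examined in each group for a fish far from the others, by the gap to the nearest fish as a share of the range. Of 28 groups of values, 2 were past the 95% critical value, and chance gives about 5% of groups. C232R115 was 1.08 in Ws replicate 3, the nearest Ws fish being at 0.03, a gap of 0.82 of the range (critical value 0.625 for 6 fish). C124R025 was -1.17 in Wa replicate 3, the nearest of the 5 Wa fish with a value being at -1.81, a gap of 0.76 of the range (critical value 0.71 for 5 fish). At C041R095, C124R022 and C253R126, Wa replicate 3 did not stand apart in this way. Wa replicate 1 has no value at C124R025 because of the quality flag.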

How the results depend on the processing

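The number of the 6 spots called depended on the processing in some pairings. In W/D relative to D, 5 spots were called, against 3 on the Cy5 channel alone and 2 at an adjusted p of at most 0.01. In W/D relative to Wa, 1 spot was called, against 0 without background correction and 0 from the deposited log2 ratios. With an unflagged signal above the threshold required on all 24 arrays, 2 of the 6 spots remained in the tests. C041R095, C124R025 and C185R005 dropped out through a flagged value and not through low signal, and C232R115 through low signal. The calls were 2 in W/D relative to D, 0 in W/D relative to Wa, and 2 each in W/D relative to Ws, D relative to Wa and Wa relative to Ws. Without a fold change threshold, 1 spot passed in D relative to Ws, against 0, beside 7.3% of all oligos. It was C232R115, for which the filter in part sets the result. The other counts stayed within 1.5 times. With the replicate number as a block, the calls in D relative to Wa were 4 in place of 5 (C124R025 was lost), the other counts were those without the block, and the median within-group r of the 15 pairs was 0.84, as without it. Fish with the same number had mean correlations between 0.0049 and 0.067 over the pairings, with single values from -0.14 to 0.20. Such values cannot show whether the numbers follow the slides.

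With 1 fish left out at a time, 4 to 5 spots were called for W/D over D (4 without D replicate 4, W/D replicate 2 or W/D replicate 4), and 4 to 5 for D over Wa (4 without D replicate 4). The median log2 fold change of the 6 spots kept its sign in 5 pairings, and in W/D relative to Wa it lay between -0.37 and 0.05 (0.05 without W/D replicate 4). The median r of the 15 pairs lay between 0.79 and 0.86, and r of C232R115 with the mean of the 5 spots between -0.19 and 0.27. Median centring moved the median of all oligos by at most 0.16 on the log2 scale (-0.16 in D relative to Wa). The correlations with the list oligos under other settings were chosen after seeing the data, and 0 passed in each. C232R115, with signals near background, is the least certain of the spots.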
